A study of Homo sapiens with 10 samples.

Results

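The comparison was between Caco-2 cells given the first guide RNA against the long noncoding RNA LHFPL3-AS2 (g1) and Caco-2 cells given the same plasmid without a guide (gCtl). It was made on the 8 libraries with these labels, 3 labelled LHFPL3-AS2_g1 and 5 labelled gCtl, out of the 10 libraries of the series, and the libraries of a second guide were left out. Caco-2 is a line of human colon carcinoma epithelium that is aneuploid and that takes on features of absorptive enterocytes when grown as a layer. All cells, those of gCtl included, carried dCas9-KRAB, a Cas9 without nuclease activity, joined to a repressor domain, and they stemmed from a single clone picked under drug selection. The guide plasmid was then delivered by lentivirus, with puromycin and hygromycin as the selecting drugs. The question was which functions and gene families differed with g1 across all genes. Each RNA library was prepared from the 3' ends of polyadenylated RNA, and a gene's level is given as CPM, its estimated counts relative to the library's total after TMM scaling, or as RPM, the same without that scaling.

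Enterocytes absorb nutrients through a brush border of microvilli, which are actin bundles held by villin, ezrin and myosins and covered with digestive enzymes. They also package lipid with apolipoprotein B and the transfer protein MTTP. Caco-2 shares with hepatocytes the regulator HNF4A and secretes several plasma proteins of the fetal liver, such as albumin and alpha-fetoprotein. Enterocytes are renewed from crypt cells, whose division depends on Wnt signalling and is opposed by BMP signalling, and they draw energy from mitochondria, whose respiratory chain is built from subunits of both the nuclear and the mitochondrial genome.

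The libraries held from 3838803 to 5674360 estimated counts in gCtl and from 4649985 to 8730468 in g1. The first principal component of log2(RPM + 1), with 51.6% of the variance, placed the g1 libraries between 32.9 and 44.3 and 4 of the gCtl libraries between -33.6 and -22.2. The fifth, gCtl replicate 5, lay at -2.10, the nearest of the gCtl libraries to g1. It also held the lowest gCtl value for several genes described below as lower with g1. The labels give no replicate number, culture or batch. Replicates are numbered here in the order of deposition, as names only, and p-values measure the spread between these libraries, which may be technical. The markers of the line were present, with EPCAM from 670 to 872 RPM, VIL1 from 122 to 175 RPM and CDH1 from 98.5 to 165 RPM over both groups, while KRT20 did not exceed 4.22 RPM and LGALS4 did not exceed 2.75 RPM. The summed level of 10 fibroblast markers was 17.6 to 39.0 RPM in gCtl and 9.24 to 19.6 RPM in g1, with POSTN and FAP at 0 in all 8 libraries, and that of 10 leukocyte markers was 14.2 to 24.8 RPM and 13.6 to 32.2 RPM, with NKG7 at 0. The summed level of 8 endothelial markers was 8.83 to 10.7 RPM in gCtl and 10.5 to 15.5 RPM in g1, with TEK at 0. PDGFRA, a fibroblast marker, made up most of that list's difference (11.4 to 29.8 RPM in gCtl and 1.15 to 10.1 RPM in g1), and the part of such cells in the results was not tested.

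The targeted RNA, LHFPL3-AS2 (ENSG00000225329.3, chromosome 7, 104894628 to 104926645 on GRCh38), was at 1.73, 0.841, 3.73, 1.73 and 3.12 RPM in gCtl and at 3.07, 3.95 and 2.03 RPM in the libraries labelled g1. The groups overlapped. Their means were 2.23 ± 1.17 (SD, n = 5) for gCtl and 3.02 ± 0.963 (SD, n = 3) for g1, both in RPM. The difference of 0.37 in mean log2(RPM + 1) gave p = 0.321 in an exact two-sided permutation test, in which 3 against 5 libraries cannot go below 0.0357. These values rest on 4.39 to 20.7 estimated counts per library and a lower level in the libraries labelled g1 was not detected at this depth. How well 3' end sequencing captures this transcript was not tested. The directions below are those of the labels.

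Of the 11485 protein-coding genes that exceeded 3 RPM in 2 or more libraries, 2169 were called changed (18.9%). The call required an adjusted p no higher than 0.05 in edgeR's quasi-likelihood test, together with a 1.5-fold difference. With g1, 1306 genes fell (11.4%) and 863 rose (7.51%). The fall exceeded 2-fold for 696 genes and the rise for 322. All 3 g1 libraries lay on 1 side of all 5 gCtl libraries for 3069 tested genes (26.7%) and for 1790 of those called. The median log2 fold change over all tested genes was 0.01 and its median standard error 0.20. Without gCtl replicate 5 the fit called 2587 genes, 1537 of them lower. In bulk RNA, fewer cells of a type and less RNA per cell cannot be told apart.

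**Figure D1:**
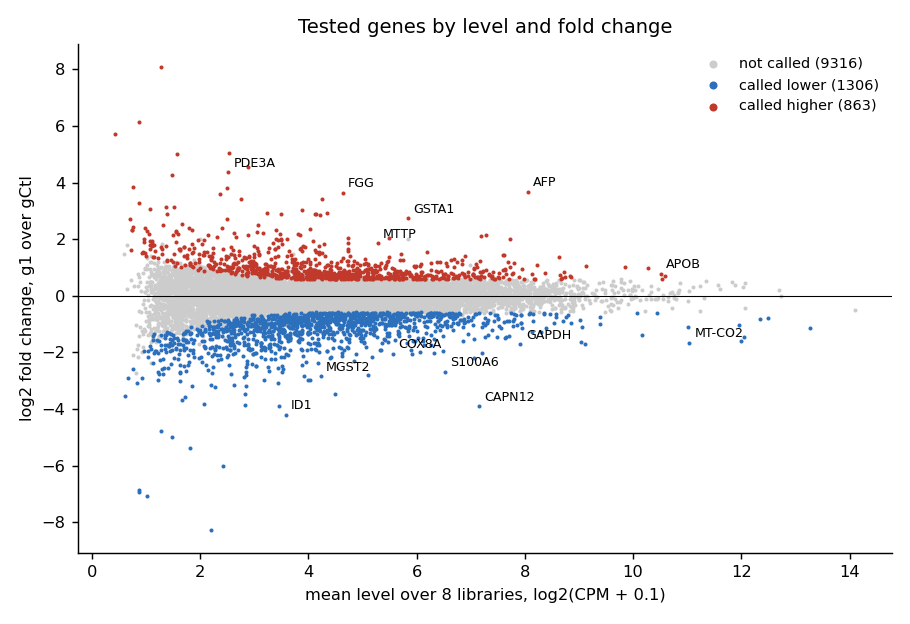
Log2 fold change of g1 over gCtl (vertical axis) against mean level, log2(CPM + 0.1), over the 8 libraries (horizontal axis), 1 point per tested gene; genes called lower are blue, genes called higher red. The 1306 lower and 863 higher genes lie at all levels, from rare transcripts to MT-CO2 and APOB; the fitted values of genes near 0 in a group depend on the prior count of the fit.

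Many genes for proteins that the liver secretes into plasma rose at the level of RNA. Of 23 tested genes of this kind 11 rose (47.8%) and none fell, and the median log2 fold change of the 23 was 0.82. AFP, the albumin-like carrier of the fetus, was at 61.4, 45.5, 58.2, 50.7 and 31.0 CPM in gCtl and at 211, 400 and 1267 CPM in g1. All g1 libraries were above all gCtl libraries, and g1 replicate 3 stood far above the other g1 libraries (log2 fold change 3.67, standard error 0.40, adjusted p = 5.59e-05). ALB, the main carrier protein of plasma, showed the same spread, with 55.1 to 84.5 CPM in gCtl and 97.9, 131 and 677 CPM in g1 (log2 fold change 2.15). TTR, which carries thyroid hormone and retinol-binding protein, rose from 65.1 ± 13.7 CPM (SD, n = 5) to 282 ± 93.1 CPM (SD, n = 3).

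The 3 fibrinogen chains, which assemble into the clotting protein, rose together and are encoded side by side on chromosome 4. FGG was at 3.03, 4.72, 5.72, 3.90 and 5.40 CPM in gCtl and at 67.0, 65.0 and 42.7 CPM in g1 (log2 fold change 3.64, standard error 0.21, adjusted p = 1.13e-07). FGA was at 4.04 to 7.33 CPM in gCtl and at 57.3, 43.4 and 13.8 CPM in g1, and FGB at 16.7 to 25.8 CPM and at 98.9, 85.2 and 72.5 CPM. For all 3 chains g1 replicate 3 was the lowest of the g1 libraries, whereas for AFP, ALB and TTR it was the highest. Smaller rises were seen for C3, the central complement protein (66.6 to 165 CPM), VTN, an adhesive plasma glycoprotein (114 to 202 CPM), and SERPINA1, the inhibitor of neutrophil elastase (92.6 to 158 CPM), while ITIH2, a carrier of hyaluronan, rose from 2.98 to 17 CPM and the protease inhibitor A2M from 1.14 to 5.63 CPM.

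The promoters of FGA, FGB, FGG, ALB and AFP are shown because these 5 genes lie on 1 chromosome and were all higher in every g1 library. The sequences are the 200 bases before the RefSeq transcription start (GRCh38.p14), 5' to 3' on the strand of the gene, with matches to the CCAAT box in capitals (CCAAT, or ATTGG where it lies on the opposite strand).
FGA, chr4:154590743-154590942, minus strand: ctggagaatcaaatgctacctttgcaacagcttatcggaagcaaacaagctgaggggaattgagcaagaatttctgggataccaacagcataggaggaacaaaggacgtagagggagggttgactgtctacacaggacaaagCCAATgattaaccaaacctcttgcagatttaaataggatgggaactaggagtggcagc
FGB, chr4:154562780-154562979, plus strand: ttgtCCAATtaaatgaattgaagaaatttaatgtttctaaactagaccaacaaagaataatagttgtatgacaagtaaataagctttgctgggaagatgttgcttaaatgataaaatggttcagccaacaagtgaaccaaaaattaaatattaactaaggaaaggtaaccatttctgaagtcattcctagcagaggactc
FGG, chr4:154612657-154612856, minus strand: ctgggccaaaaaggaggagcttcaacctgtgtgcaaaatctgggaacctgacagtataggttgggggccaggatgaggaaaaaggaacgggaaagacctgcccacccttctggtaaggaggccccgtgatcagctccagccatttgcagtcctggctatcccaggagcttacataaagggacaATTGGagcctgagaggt
ALB, chr4:73404087-73404286, plus strand: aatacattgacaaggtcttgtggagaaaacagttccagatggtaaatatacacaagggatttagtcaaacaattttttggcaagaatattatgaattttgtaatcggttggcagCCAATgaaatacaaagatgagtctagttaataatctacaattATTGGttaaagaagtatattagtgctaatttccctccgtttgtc
AFP, chr4:73436021-73436220, plus strand: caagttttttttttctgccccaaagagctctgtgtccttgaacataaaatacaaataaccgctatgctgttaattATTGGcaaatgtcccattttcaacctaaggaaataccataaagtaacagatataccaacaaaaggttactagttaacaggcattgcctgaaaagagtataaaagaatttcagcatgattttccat
Each of the 5 holds at least 1 match, from 17 bases (FGG) to 196 bases (FGB) before the start. Shares over many genes were taken over a longer window, from 250 bases before to 50 bases after the start. They do not compare directly with the matches shown. In that window the box was present in 36.8% of the promoters of all tested genes with a RefSeq promoter. It was present in 38.8% of those called lower and in 35.5% of those called higher.

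Genes of the enterocyte surface moved in both directions. Of 18 tested genes of the microvillus core and its linkers 6 rose (33.3%) and 3 fell (16.7%), with a median log2 fold change of 0.55. EPS8, which caps and bundles actin in microvilli, was at 44.7 to 80.0 CPM in gCtl and at 123, 101 and 174 CPM in g1 (adjusted p = 0.000663). MYO1A, the brush border myosin, was at 5.85 to 8.75 CPM and at 26.0, 15.7 and 22 CPM. Both were separated between the groups. EZR, which links actin to the apical membrane, rose as well, but its g1 value in replicate 2 (248 CPM) lay below the highest gCtl value (268 CPM). VIL1, the bundling protein villin, did not pass the test (150 against 166 CPM, log2 fold change 0.14). MYO1D, another class I myosin, fell from 91.3 to 32.2 CPM, and the scaffold PDZK1 fell from 43.7 to 24.4 CPM.

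Of 8 tested hydrolases and peptidases of the brush border 4 rose and none fell. DPP4, which cuts dipeptides from peptides, rose from 73.3 to 116 CPM. SI, the sucrase-isomaltase of mature enterocytes, did not pass the filter on low values. It was at 0 to 0.361 RPM in gCtl and at 1.29 to 2.86 RPM in g1, while LCT did not exceed 1.51 RPM and ANPEP did not exceed 0.802 RPM in either group.

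The guanylate cyclase receptor GUCY2C, which makes cyclic GMP in response to guanylin, was at 0.505, 1.13, 1.61, 0.731 and 0.721 CPM in gCtl and at 11.6, 11.4 and 12.8 CPM in g1 (adjusted p = 1.62e-05). PDE3A, a phosphodiesterase that is inhibited by cyclic GMP, was at 0.536 to 0.757 CPM in gCtl and at 12.4, 13.7 and 15.3 CPM in g1 (log2 fold change 4.36, standard error 0.30, adjusted p = 8.46e-07). The g1 libraries agreed closely for both genes, and no gCtl library came near them. These were 2 of the 24 tested genes of cyclic nucleotide signalling, of which no other rose and PDE4D fell. The rises were 8.33% of the list, near the 7.51% of all tested genes.

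Among genes of lipid export, MTTP was at 16.9 to 24.4 CPM in gCtl and at 71.4, 89.3 and 51.9 CPM in g1 (log2 fold change 1.86, adjusted p = 2e-05). APOB, the structural protein of chylomicrons, rose from 1153 to 1975 CPM and APOA2 from 211 to 320 CPM, while APOA1 was at 444 CPM in gCtl and 405 CPM in g1 and did not pass the test, and APOC1 fell from 20.5 to 8.23 CPM. These were the 4 called among 12 tested apolipoproteins and assembly factors. FABP1, the fatty acid-binding protein of enterocytes and hepatocytes, fell from 16.3 to 9.01 CPM, and the retinol carrier RBP4 rose from 150 to 280 CPM.

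Of 29 tested enzymes of the CYP, UGT, GST and SULT families 5 fell and 6 rose. GSTA1, a glutathione transferase of liver and gut, was at 23.0, 15.3, 15.2, 17.3 and 20.2 CPM in gCtl and at 110, 143 and 110 CPM in g1 (log2 fold change 2.74, standard error 0.15). MGST2, a membrane-bound glutathione transferase, went the other way, from 40.1, 29.4, 24.8, 34.8 and 8.29 CPM to 3.74, 4.08 and 3.61 CPM. SULT1C2, a sulfotransferase, rose from 3.92 to 32.6 CPM, and CYP1A1, the target of the aryl hydrocarbon receptor, fell from 6.65 to 1.60 CPM. Of 223 tested solute carriers 34 fell (15.2%) and 20 rose (8.97%). They included a rise of SLC26A3, the chloride-bicarbonate exchanger of the colon, from 0.18 to 0.715 CPM in gCtl to 2.15 to 4.36 CPM in g1, and a fall of the ADP/ATP carrier SLC25A5 from 23.5 to 2.88 CPM.

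**Figure D2:**
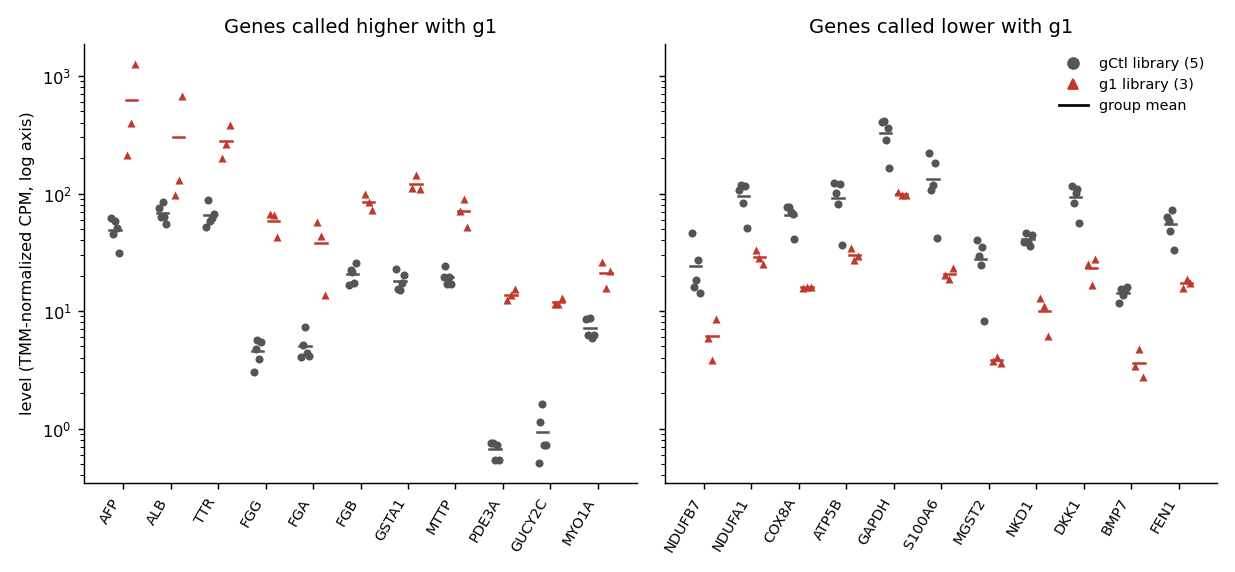
Level in TMM-normalized CPM on a log axis for 11 genes called higher (left) and 11 called lower (right), 1 grey circle per gCtl library (n = 5), 1 red triangle per g1 library (n = 3), bars at the group means. AFP and ALB spread most among the g1 libraries (211 to 1267 CPM and 97.9 to 677 CPM), while FGG, GSTA1, PDE3A and GUCY2C are tight and far from gCtl. The lower genes with 1 gCtl library, replicate 5, nearer to g1 than the rest include S100A6, MGST2, GAPDH, NDUFA1, NDUFB7 and COX8A.

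Many nuclear genes for subunits of the respiratory chain fell. Of 38 tested subunits of complex I, the NADH dehydrogenase, 19 fell and none rose, with a median log2 fold change of -0.60. NDUFA1 was at 108, 117, 82.9, 116 and 51.1 CPM in gCtl and at 32.8, 28.6 and 24.9 CPM in g1 (log2 fold change -1.72, standard error 0.24, adjusted p = 0.000204). NDUFS3, a core subunit, was at 54.4 to 91.8 CPM and at 24.8, 28.1 and 19.6 CPM, and NDUFB7, a subunit on the side of the intermembrane space, was at 45.7, 16.1, 18.2, 27.3 and 14.2 CPM and at 5.95, 3.86 and 8.59 CPM. In each of these the groups were separate, and replicate 5 was the lowest gCtl library.

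Of 26 tested subunits of complexes II, III and IV 9 fell (34.6%) and none rose. NDUFA4 (log2 fold change -1.08) was written into both this list and the complex I list, so it is counted as a fall in each. COX8A of cytochrome c oxidase was at 41.1 to 77.0 CPM in gCtl and at 15.8, 16.1 and 16.1 CPM in g1 (log2 fold change -2.04). SDHB, the iron-sulfur subunit of complex II, fell from 12.3 to 3.47 CPM, with gCtl replicate 5 (3.42 CPM) inside the range of g1, while SDHA (59.0 and 39.6 CPM) and SDHC (117 and 85.7 CPM) were not called. Of 17 subunits of the ATP synthase 8 fell (47.1%), with ATP5B going from 92.0 to 30.2 CPM and ATP5A1, the other catalytic-head subunit, at 336 and 342 CPM without a call. Of 76 mitochondrial ribosomal proteins 15 fell (19.7%) and 2 rose, and of 45 genes of import and inner membrane carriers 12 fell (26.7%) and 2 rose. Of 49 assembly factors of the respiratory complexes 4 fell (8.16%, against 11.4% of all tested genes) and none rose. Of 18 enzymes of the tricarboxylic acid cycle only the malate dehydrogenase MDH2 was called, from 216 to 122 CPM.

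Transcripts of the respiratory chain are short, and short transcripts were lower with g1 across all genes. The median transcript length was 1938 bases for genes that fell, 3333 for genes that rose and 2791 for all tested genes, and it was 766 for the complex I list. When the trend of fold change on transcript length was taken out in the fit, 10 complex I subunits fell, with a median log2 fold change of -0.28, and 5 subunits of the ATP synthase. For complexes II, III and IV the count was again 9, but the median moved from -0.35 to -0.14. Of the mitochondrial ribosomal proteins 8 fell and 5 rose in that fit, and their median moved from -0.26 to -0.05. Of the genes of import and inner membrane carriers 9 fell and 4 rose, with the median going from -0.19 to -0.11.

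The promoters of NDUFB7, NDUFA1 and NDUFS3, the 3 complex I subunits with the largest falls, are shown over the 110 bases before the RefSeq start (GRCh38.p14), with matches to the ETS core in capitals (CCGGAAG, or CTTCCGG on the opposite strand), the element through which GABPA acts on many respiratory genes.
NDUFB7, chr19:14572067-14572176, minus strand: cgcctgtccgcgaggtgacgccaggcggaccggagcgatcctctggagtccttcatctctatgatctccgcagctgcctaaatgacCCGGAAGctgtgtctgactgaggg
NDUFA1, chrX:119871722-119871831, plus strand: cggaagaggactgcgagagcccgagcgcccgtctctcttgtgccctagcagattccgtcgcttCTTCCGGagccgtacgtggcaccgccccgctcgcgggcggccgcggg
NDUFS3, chr11:47578964-47579073, plus strand: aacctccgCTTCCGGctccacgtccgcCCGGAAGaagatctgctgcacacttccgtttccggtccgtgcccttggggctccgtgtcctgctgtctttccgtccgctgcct
The shares of promoters with a motif are again over the longer window, from 250 bases before to 50 bases after the start. They are over 9497 promoters, 1039 of genes that fell and 696 of genes that rose. Shares of a few percent therefore rest on few promoters, and no difference in shares was tested. The ETS core was present in 19.9% of the promoters of genes that fell, in 13.1% of those that rose and in 20.0% of all tested promoters, so that the genes that fell held it no more often than tested genes in general. Of the other 11 motifs searched, the AP-1 site (TGANTCA) was present in 4.25% of all promoters, 3.47% of those of genes that fell and 6.61% of those of genes that rose, and the TCF/LEF site (ATCAAAG) in 1.49%, 0.770% and 2.16%. The CDX site (2.16%, 1.54% and 3.59%) and the CRE (3.3%, 2.6% and 4.9%) had the same order. Rarer in genes that rose were the E-box (10.3%, 11.8% and 8.19%), the SP/KLF box (69.4%, 72.3% and 62.4%) and the NRF1 core (5.77%, 5.58% and 3.88%).

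The messenger RNAs of the mitochondrial genome fell too. Of the 13, 9 fell and none rose, with a median log2 fold change of -0.82. With the trend on transcript length taken out, 7 fell and the median was -0.63. MT-CO2 was at 2583, 3256, 3276, 3269 and 1863 RPM in gCtl and at 926, 1020 and 698 RPM in g1, and MT-ND3 at 680, 946, 905, 844 and 398 RPM and at 219, 249 and 204 RPM, and for both the groups were separate. MT-ND5 was at 4740 to 8364 RPM in gCtl and at 4977 to 7971 RPM in g1, without a difference that passed the test. The ribosomal RNA MT-RNR2 was at 116926 to 144141 RPM in gCtl and at 126818 to 154905 RPM in g1. The messenger RNAs together made up 5.27% to 9.57% of a gCtl library and 3.11% to 5.13% of a g1 library, so that gCtl replicate 1, with the lowest value of its group, lay close to g1. By the median difference in log2(CPM + 1) over the 13, it lay within the range of g1. Against the other 4 gCtl libraries it was at -0.67, and against all 5 the g1 libraries were at -0.68, -0.52 and -1.30. The share of all mitochondrially encoded RNA, 18.3% to 24% in gCtl and 19% to 20.6% in g1, overlapped between the groups.

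Of 18 tested glycolytic enzymes 6 fell and 1 rose. GAPDH, which is often taken as a reference gene, was at 409, 410, 284, 364 and 166 CPM in gCtl and at 103, 97.7 and 97.3 CPM in g1 (log2 fold change -1.72, standard error 0.24, adjusted p = 0.000222). ACTB, another common reference gene, fell from 140 to 79.3 CPM, with an overlap of the groups. PFKP, the platelet phosphofructokinase, fell from 32.6 to 10.4 CPM. TXNIP, which lowers glucose uptake, was at 21.2 to 40.5 CPM in gCtl and at 78.0, 57.5 and 83.2 CPM in g1.

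Of 26 tested genes of sterol synthesis 8 fell (30.8%) and none rose. DHCR7, which carries out a late step of cholesterol synthesis, was at 91.1 to 130 CPM in gCtl and at 59.1, 69.1 and 41.5 CPM in g1, and the groups were separate. HMGCS1, an early enzyme of the pathway, was at 87.2 and 120 CPM, under the fold minimum.

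In the lists of cell division part of the members fell and none rose. Of 61 tested genes of mitosis, the spindle and the kinetochore 20 fell (32.8%), and 58 of the 61 had a log2 fold change below 0, with a median of -0.47. CDC25B, a phosphatase that activates CDK1, was at 29.3 to 49.6 CPM in gCtl and at 13.1, 18.5 and 6.35 CPM in g1 (adjusted p = 0.00162). CDC20, an activator of the anaphase-promoting complex, was at 13.6 to 22.9 CPM and at 7.48, 9.45 and 4.11 CPM. UBE2C, the ubiquitin-conjugating enzyme of that complex, had the largest fall of the list (log2 fold change -2.47), but gCtl replicate 5 (1.98 CPM) lay within the range of g1. MKI67, the proliferation antigen, was at 567 CPM in gCtl and 566 CPM in g1, and CCNB1 at 158 and 114 CPM, without a call. In CDC25B and CDC20 g1 replicate 3 had the lowest value of all 8 libraries. The summed level of the mitotic list overlapped between the groups, at 6032 to 8429 RPM in gCtl and 3178 to 7298 RPM in g1.

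Of 50 tested genes of DNA replication and nucleotide synthesis 12 fell and none rose. FEN1, which trims Okazaki fragments, was at 33.3 to 71.9 CPM in gCtl and at 15.8, 18.7 and 17.4 CPM in g1, and RRM1, the large subunit of ribonucleotide reductase, at 224 to 361 CPM and at 150, 155 and 114 CPM. Among the MCM helicase subunits MCM2 fell from 11.7 to 3.63 CPM, while MCM3 (114 and 97.7 CPM) and MCM4 (134 and 125 CPM) were not called. Of 22 tested G1 regulators 6 fell and none rose, among them CCNE1, cyclin E, from 9.29 to 4.42 CPM. CCND1, cyclin D1, was at 231 and 197 CPM without a call. Of 21 tested clustered histone genes 2 fell (9.52%, against 11.4% of all tested genes) and none rose.

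Most called targets of Wnt signalling were lower. Of 18 tested feedback and crypt targets 7 fell (38.9%) and 1 rose. NKD1, an inhibitor of Wnt signalling, was at 38.4, 46.1, 39.0, 35.8 and 44.0 CPM in gCtl and at 12.9, 10.9 and 6.10 CPM in g1 (log2 fold change -2.05, standard error 0.21, adjusted p = 4.26e-05). DKK1, a secreted inhibitor of Wnt receptors, was at 55.7 to 117 CPM and at 25, 16.7 and 27.9 CPM, and EPHB2, a receptor of crypt cells, fell from 112 to 59.0 CPM. AXIN2, the target most often used as a readout, was at 60.7 and 44.7 CPM, and LGR5, the stem cell marker, at 6.98 and 11 CPM, and neither was called. Of the pathway's own 30 tested components 6 fell and 3 rose. CTNNB1, which encodes beta-catenin, fell from 26.0 to 10.6 CPM, and its nuclear partner TCF7L2 was at 85.2 to 119 CPM in gCtl and rose to 237, 212 and 156 CPM in g1.

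Of 29 tested genes of BMP and TGF-beta signalling 7 fell and 3 rose. BMP4 was at 139 to 285 CPM in gCtl and at 90.1, 92.1 and 95.9 CPM in g1, and BMP7 at 11.6 to 16 CPM and at 3.40, 4.72 and 2.74 CPM, while BMP2 rose from 8.25 to 20.3 CPM. ID1, a target of BMP signalling that binds and blocks other transcription factors, had the largest fall among the genes of at least 10 CPM whose groups were separate. It was at 35.9, 9.06, 19.1, 24.9 and 3.06 CPM in gCtl and at 1.53, 0.429 and 0.872 CPM in g1 (log2 fold change -4.19, standard error 0.72, adjusted p = 0.000923). The gCtl values spread over more than 10-fold, and replicate 5 was the lowest.

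Of 17 tested genes of Notch signalling 8 fell (47.1%) and 1 rose. HES1, the main target of Notch in absorptive cells, was at 194, 90.6, 140, 155 and 71.1 CPM in gCtl and at 56.6, 54.5 and 55.9 CPM in g1. NOTCH2 fell from 27.4 to 14.4 CPM and the ligand DLL3 from 4.55 to 0.759 CPM, and NRARP, a feedback inhibitor, rose from 4.82 to 8.34 CPM. Immediate early genes went the other way, with 6 of 13 that rose (46.2%) and none that fell. JUND rose from 25.7 to 49.5 CPM and KLF6 from 94.7 to 223 CPM, and in both g1 replicate 3 had the highest value (64.0 and 376 CPM). FOS rose from 1.10 to 3.50 CPM.

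Among genes of protein synthesis, sorting and breakdown most members were not called. More of the called members fell than rose, as over all tested genes, where 11.4% fell and 7.51% rose. Some lists lay near or below that share of falls. Of 59 translation initiation and elongation factors 7 fell (11.9%) and 1 rose, and of 41 cytosolic chaperones 4 fell (9.76%) and 1 rose. Of 22 tRNA synthetases 1 fell (4.55%) and none rose, and of 48 ribosome biogenesis factors 7 fell (14.6%) and 2 rose. Of 79 tested cytosolic ribosomal proteins 22 fell (27.8%) and 1 rose. RPLP0 of the ribosomal stalk was at 530, 444, 383, 455 and 196 CPM in gCtl and at 185, 161 and 156 CPM in g1. This list changed direction with the length trend taken out, to 10 that fell and 15 that rose, and counts of ribosomal proteins are uncertain because many have processed copies of nearly the same sequence in the genome. Of 67 splicing factors 15 fell (22.4%) and 1 rose, and of 36 proteasome subunits 9 fell and 1 rose. With the length trend taken out, 7 proteasome subunits fell and 1 rose, and their median log2 fold change moved from -0.22 to 0.01. PSMB4 of the core fell from 56.2 to 14.7 CPM, and the exception PSMC1, an ATPase of the cap encoded on chromosome 14, rose from 209 to 448 CPM. Of 56 genes of entry into the endoplasmic reticulum and N-glycosylation 10 fell and none rose, led by SEC61G (22.1 to 4.31 CPM) and SEC61B (17.4 to 4.43 CPM) of the translocon, whose large subunit SEC61A1 was at 24 and 23.2 CPM. Of 39 genes of the unfolded protein response 8 fell and 2 rose, and its main chaperone HSPA5 was at 853 and 1218 CPM, separate between the groups but under the fold minimum (adjusted p = 0.00369).

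Of 45 tested lysosomal genes 16 fell (35.6%) and none rose, with a median log2 fold change of -0.42 and 9 members above 0. LAPTM4A, a membrane protein of late endosomes and lysosomes, was at 78.3, 82.5, 85.4, 79.4 and 53.7 CPM in gCtl and at 35.5, 27.3 and 23.4 CPM in g1 (adjusted p = 0.000135). SGSH, which degrades heparan sulfate, fell from 8.34 to 2.34 CPM. LAMP1, the most abundant membrane protein of the lysosome, was at 297 and 287 CPM without a call. Among 35 genes of glutathione metabolism and NRF2 targets 14 fell (40.0%) and 2 rose. They included PRDX2, a peroxidase (15.7 to 3.45 CPM), GPX1, the glutathione peroxidase (35.9 to 10.2 CPM), and FTL, the light chain of ferritin (264 to 96.7 CPM), while NQO1, a standard NRF2 target, was at 163 and 124 CPM without a call. For the lysosomal list and the mitotic list the trends on length and GC content, taken out together, gave 13 and 19 that fell, with 1 lysosomal gene that rose.

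Of 22 tested genes of the Crumbs, Par and Scribble complexes, which set the apical and basal sides of the cell, 2 fell and 2 rose. Each count was 9.09% of the list, near the shares of all tested genes, of which 11.4% fell and 7.51% rose. SCRIB fell from 4.45 to 1.18 CPM and LIN7A from 10.4 to 1.63 CPM, while MPP5 rose from 36.2 to 57.3 CPM. The call of MPP5 was lost in 6 of the alternative fits. With the length trend taken out, 2 genes of this list fell and none rose. With the median of each gene's 20 Mb window taken out, 2 fell and 1 rose. The GTPase CDC42, which steers polarity, was at 83.8 and 91.3 CPM without a call, and RHOA fell from 88.1 to 41.7 CPM. Of 54 genes of the actin cytoskeleton 9 fell and 9 rose. Of 22 cadherins, catenins and nectins 6 fell and 2 rose, with P-cadherin, CDH3, going from 73.7 to 93.8 CPM in gCtl to 30.8, 37.4 and 23.3 CPM in g1 and E-cadherin, CDH1, at 144 and 120 CPM without a call. CLDN4 of the tight junction fell from 73.4 to 30.8 CPM and CLDN2 rose from 13.4 to 24.8 CPM. S100A6, a calcium-binding protein, was at 220, 107, 118, 183 and 41.8 CPM in gCtl and at 20.2, 18.9 and 23.0 CPM in g1, and of 18 tested annexins and S100 proteins 7 fell and 3 rose.

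Families were also formed from the letters before the first digit of a symbol, with at least 10 tested genes. The highest shares of members that fell were in NDUFB (8 of 11), ABHD (6 of 18), TSPAN (4 of 12), NDUFA (4 of 13), CFAP (3 of 10) and COX (6 of 20), and EXOSC was equal to the last of these (3 of 10). ABHD genes encode hydrolases of the alpha/beta fold, led by ABHD6, which splits monoacylglycerol (log2 fold change -1.32). TSPAN genes encode tetraspanins, and in this family TSPAN9 fell (-1.90) and TSPAN8 rose (1.15). The highest shares that rose were in KLF (4 of 11), CASP, NEK and SAMD (3 of 10 each), MYO (5 of 17) and PIK and ZSCAN (3 of 11 each). KLF genes encode zinc finger factors, and KLF7 (2.72), KLF6 (1.24), KLF5 (1.21) and KLF3 (0.89) rose while KLF16 (-2.71) and KLF12 (-1.02) fell. KLF5, a factor of crypt cells, was at 124 to 158 CPM in gCtl and at 324, 275 and 360 CPM in g1. Of 352 tested ZNF genes, most of them DNA-binding repressors, 38 rose (10.8%) and 9 fell (2.56%), with a median log2 fold change of 0.21. ZNF827 was at 4.11 to 8.87 CPM in gCtl and at 25.3, 33.1 and 25.2 CPM in g1, and ZNF618 at 2.86 to 6.56 CPM and at 25.7, 28.8 and 9.96 CPM.

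Genes also moved by their place in the genome, in blocks that covered whole chromosomes or parts of them. On chromosome 14, 68 of 371 tested genes rose and 13 fell, and the median log2 fold change was 0.40. Each of its 20 Mb windows had a median between 0.31 and 0.47. In the first 20 Mb of chromosome 4, 32 of 73 genes rose and 1 fell (median 0.61), led by MFSD7, a transporter of the major facilitator superfamily (log2 fold change 2.24), HS3ST1, a heparan sulfate sulfotransferase (1.66), and LAP3, an aminopeptidase (1.52). In the next 20 Mb of chromosome 4 the median was 0.07. On chromosome 16 the sign changed within the chromosome. The median was 0.30 and 0.32 in the windows up to 40 Mb, where 36 of 171 and 19 of 117 genes rose, and -0.17, -0.21 and -0.18 in the 3 windows beyond, where 15 of 64, 19 of 110 and 14 of 74 genes fell. On chromosome 3, 110 of 656 genes fell and 28 rose (median -0.19), and on chromosome 7, which carries LHFPL3-AS2, 99 of 532 fell and 13 rose (median -0.20).

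The blocks were alike in the 3 g1 libraries. Over the genes with a mean of at least 10 CPM, the median difference from gCtl on chromosome 14 was 0.37, 0.40 and 0.41 on the log2(CPM + 1) scale, and on chromosome 3 it was -0.17, -0.17 and -0.18. The gCtl libraries, each compared with the other 4, stayed between -0.02 and 0.02 on chromosome 14 and between -0.03 and 0.07 on chromosome 3. On chromosome 7 the g1 libraries were at -0.12, -0.24 and -0.27 and gCtl between -0.01 and 0.04. Of 138 windows of 20 Mb with at least 20 such genes, all 3 g1 libraries were above all 5 gCtl libraries in 29 and below them in 29. RNA alone was measured, and whether the DNA of the lines differed is not analysed here.

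With the median of each gene's 20 Mb window taken out in the fit, 1881 genes were called, 1196 lower and 685 higher, and 1619 of the 2169 calls were kept in the same direction. In that fit 11 hepatic plasma proteins rose, while 15 complex I subunits, 17 mitotic genes and 14 lysosomal genes fell. The ZNF genes went from 38 to 26 that rose and from 9 to 3 that fell, and the microvillus list from 6 to 4 that rose. PSMC1 and SERPINA1 lie on chromosome 14 and FGA, FGB, FGG, ALB, AFP and MTTP on chromosome 4 beyond its first 20 Mb. The windows of these 6 genes were shifted upward as well, by less. From 60 to 80 Mb, 10 of 54 genes rose (median 0.19), from 80 to 100 Mb 11 of 49 (median 0.19) and from 140 to 160 Mb 11 of 49 (median 0.14), and in the window from 80 to 100 Mb the median of every g1 library lay above that of every gCtl library.

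The base composition of the 3' ends differed as well. The last 500 bases of the transcripts had a median GC content of 47.4% in genes that fell, 40.4% in genes that rose and 41.8% in all tested genes. In the 2802 genes above the upper quartile of GC content 18.4% fell and 5.67% rose, and in the 2962 genes up to the lower quartile 6.95% fell and 8.95% rose. With the trend on GC content taken out in the fit, 1138 genes were called lower and 1057 higher. With the trend on length taken out, 1134 were lower and 951 higher.

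Among the genes of at least 10 CPM whose groups were separate, the 12 with the largest falls also included CAPN12, a calpain protease, TOMM6, a small subunit of the outer membrane translocase, GCHFR, the feedback regulator of tetrahydrobiopterin synthesis, REPIN1, a zinc finger protein, CYSTM1, KCNJ8, a potassium channel subunit, CECR5, PALM3, IFI30, the lysosomal thiol reductase, and GNG5, a G protein subunit. CAPN12 was at 386, 158, 187, 320 and 36.7 CPM in gCtl and at 30.4, 7.30 and 6.23 CPM in g1. In all 12 but KCNJ8 and PALM3, replicate 5 was nearer to the nearest g1 library than to the nearest other gCtl library on the CPM scale. KCNJ8 was at 8.84, 8.50, 13.9, 13.6 and 8.83 CPM in gCtl and at 1.36, 0.429 and 1.5 CPM in g1 (log2 fold change -3.19, standard error 0.37). The 12 largest rises also included MALRD1, a regulator of bile acid signalling (0.566 to 1.43 CPM in gCtl, and 15.5, 9.23 and 14.8 CPM in g1), BASP1, a membrane-bound signalling protein, MAT1A, the liver form of methionine adenosyltransferase, and PI3, an elastase inhibitor that was at 14.4, 16.3 and 101 CPM in g1. PALM2-AKAP2, a readthrough of neighbouring genes, was at 23.4, 5.80 and 13.7 CPM in g1 and at 0 in 4 of the gCtl libraries, and its reads may be shared with the genes it joins.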

How the data were processed

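RNA of 8 Caco-2 libraries was compared, 3 labelled LHFPL3-AS2_g1 and 5 labelled gCtl, made by 3' end sequencing (Lexogen QuantSeq). The deposited values are estimated counts per transcript that the authors obtained with kallisto 42.5 (version as the labels give it) on GENCODE transcripts, not normalized and not pooled. Here the values of a gene's transcripts were added up and then rounded. The libraries held from 3838803 to 8730468 counts. Protein-coding genes with more than 3 RPM in at least 2 libraries were kept and tested with the quasi-likelihood test of edgeR 4.0.16 (R 4.3.3) after TMM scaling, with Benjamini-Hochberg adjustment over all 11485 genes. A gene was called where the adjusted p did not exceed 0.05 and the difference reached 1.5-fold. LHFPL3-AS2 was tested by an exact two-sided permutation test. The script was tested on simulated data.

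The comparison, the gene lists and the motifs were chosen with earlier results of these data known. The text names the 12 genes called lower and the 12 called higher with the largest changes among genes with separate groups and at least 10 CPM in the higher group, for each list leading called members and the first written ones, for each family and window up to 3 called members, and LHFPL3-AS2. A few members were added for their known roles after their values were seen. Alternatives were DESeq2 1.42.0, limma 3.58.1, other scalings and filters, fits without trends on transcript length, GC content or genome window, and fits that omitted 1 library at a time. The methods describe GeneSpring, which was not used here. Some genes that the rule names are not reported here.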

Additional observations from a re-analysis of the deposited data

Results flagged for a closer look

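Among the 141 genes tested for a gCtl library far from the other 4 (a gap over 0.71 of the range), 7 had one, or 4.96%, and chance gives about 1 in 20. Replicate 5 was the lowest gCtl library for COX8A (41.1 CPM) and LAPTM4A (53.7 CPM) and the highest for LAMP1 (375.7 CPM). Replicate 2 was the highest for CDC25B (49.6 CPM), PDZK1 (54.6 CPM) and PI3 (9.44 CPM). Replicate 4 alone held counts of PALM2-AKAP2 (2.44 CPM).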

How the results depend on the processing

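The 2169 called genes, 60.2% of them lower with g1, became 575 when the fold change itself had to exceed 1.5 in the test (glmTreat, 67.1% lower), and the 608 calls over all lists became 205. The share that was lower was 66.1% with scaling to library totals, 56.3% with quantile normalization, 67.0% and 67.5% with limma on log2(RPM + 1) and log2(RPM + 0.1), and 54.3% with no fold minimum. It was 54.4%, 51.9% and 53.8% with the trend on length, on GC content or on both taken out, and 63.6% with window medians taken out. The last 2 fits were chosen after seeing the data. With 1 library left out, the calls ranged from 1683 (without g1 replicate 3) to 2587 (without gCtl replicate 5), the share that was lower from 57.4% to 61.6%, the calls over all lists from 495 to 705, and the difference of LHFPL3-AS2 from 0.18 to 0.55. The median of chromosome 14 ranged from 0.36 to 0.40, that of chromosome 3 from -0.21 to -0.18 and that of chromosome 7 from -0.25 to -0.18. With library totals the medians were 0.35 on chromosome 14 and -0.23 on chromosome 3, and the median of all genes moved to -0.04. The cause of these shifts was not tested.

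Of the 117 called genes named, 81 stayed called under every alternative run and 103 with each library left out, and none changed direction. The calls of EZR, KLF6, KLF12 and MPP5 were lost without g1 replicate 3, those of CYP1A1 and DPP4 without g1 replicate 1, and those of ABHD6, ACTB, APOA2, CDK1, FABP1, NRARP, PDE4D and TSPAN8 without any of several libraries. No paired analysis was possible because the labels give no replicate numbers, and those used here only name the libraries. Genes of a few CPM rest on few counts, and for them the spread between libraries limits what can be called.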
